A study of Homo sapiens with 6 samples.

Results

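A list of 32 human genes of protein folding and quality control in the endoplasmic reticulum (ER) was chosen by symbol. The choice was made with earlier results of these data known. These genes were followed in primary effusion lymphoma cells with and without 3-AP. The list was grouped by role into chaperones and their cofactors (11 genes), disulfide isomerases (4), ER-associated degradation (11), translocon and ER export (4), and sensors of the unfolded protein response (2). A probe was annotated to 31 of the 32 genes, out of 20046 genes with an annotated probe on the array, and the expression of HERPUD1 was not analysed here. Of the 39 probes, 33 were detected on at least 3 of the 6 arrays, and 28 genes entered the fit among 14627 features. PDIA3, DERL3 and ERN1 had no such probe. No gene entered the fit through 1 treatment group alone: 27 of the 28 were detected on all 6 arrays and DNAJC3 on 5.

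BCP1, BCBL1 and BC1 are cell lines from primary effusion lymphoma, a B cell lymphoma of body cavities with a plasma cell-like expression pattern that carries Kaposi sarcoma-associated herpesvirus. Each line was cultured for 48 h with vehicle or with 2.5 µM 3-AP (triapine), an inhibitor of ribonucleotide reductase, and each culture was measured on 1 Illumina HumanHT-12 bead array. This gave 3 vehicle and 3 treated arrays, 1 pair per line, so the lines serve as the replicates of the response and no line has a second culture of either condition. All 6 cultures grew in the same medium at low passage, and no label names a genetic change in any of them.

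Proteins that enter the secretory pathway pass through the SEC61 channel into the ER, where chaperones such as BiP and disulfide isomerases fold them. Proteins that fail to fold are returned to the cytosol and degraded, which is called ER-associated degradation. When unfolded protein accumulates, the sensors IRE1, ATF6 and PERK start the unfolded protein response, in which XBP1 and ATF6 activate genes of folding and degradation and ATF4 activates DDIT3. Plasma cells, which secrete antibody, depend on this system.

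Some properties of the arrays bear on all results. In the table of non-normalized signals, the BCP1 columns held the processed BCBL1 values for 100% of probes, so values of BCP1 come from the processed table only. The arrays labelled BCP1 and BCBL1 were closer to each other than to their own treated counterparts. Across features, the Pearson correlation was 0.990 between the vehicle arrays of these 2 lines and 0.981 between BCP1 vehicle and BCP1 3-AP, and both vehicle arrays correlated with BC1 vehicle at 0.915 to 0.920. Whether these are 2 independent lines was not tested, so the standard errors over 3 pairs and the counts over 3 lines may rest on fewer independent lines than 3. Calls of the main analysis are therefore also given without BCP1. Calls of members in the deposited table and in other settings that include BCP1 are not given without it. Of 17 plasma cell markers, 12 were detected on all 6 arrays, among them PRDM1, IRF4, SDC1 and CD38, and JCHAIN, CD27, POU2AF1 and TNFRSF13B were detected on none. On all arrays there was signal above background for 5 of 19 mature B cell markers, for 1 of 18 T and NK cell markers (IL2RB) and for 3 of 18 myeloid and dendritic cell markers (LYZ, CD68 and AIF1). PAX5 and CD3E were detected on none. The T and NK cell markers in the fit had a summed log2 level of 12.95 to 13.68 with vehicle and 13.71 to 14.13 with 3-AP. The summed levels were 14.73 to 14.88 and 14.87 to 15.09 for plasma cell markers, 12.53 to 13.52 and 13.03 to 13.74 for mature B cell markers, and 10.06 to 10.47 and 10.35 to 10.69 for myeloid and dendritic cell markers. Their part in the results was not tested. In bulk RNA, fewer cells of a type and less RNA per cell cannot be told apart.

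Promoters are shown first, because a known element of the unfolded protein response marks part of these genes. The ER stress response element (ERSE; CCAAT, 9 free bases, then CCACG) and ERSE-II (ATTGG, 1 free base, then CCACG) were searched for on both strands in RefSeq windows from 250 bases before to 50 bases after each annotated gene start (GRCh38.p14). Windows were found for 28 of the 32 genes, and not for SEC24D, DERL1, DERL3 and PDIA3. ERSE lay in a window of 6 of these 28 genes (21.4%), HSPA5, HSP90B1, CALR, CANX, PDIA6 and CRELD2, against 0.0769% of all 35116 windows and 0.0916% of the 27305 genes with one. ERSE-II lay in 3 genes (10.7%), HYOU1, SDF2L1 and HERPUD1, against 0.0541% of all windows and 0.0696% of the genes with one. No gene of the list held both motifs, so no matches of the 2 motifs overlap. HSP90B1 held ERSE in both orientations, at 194 to 176 and at 89 to 71 bases before the start, and HYOU1 held ERSE-II at 185 to 175 and at 79 to 69 bases before it. The ERSE of HSPA5 lay 66 to 48 bases before the start, that of CRELD2 80 to 62 and that of CALR 225 to 207. Among the genes of ER-associated degradation that had a window, only HERPUD1 held a motif. Neither motif was found in the window of DNAJB9. The windows below are those of 5 genes with a match and, for contrast, of DNAJB9 and SEL1L, 2 genes without one whose levels are described below. Each runs 5′ to 3′ on the strand of the gene, and capitals mark ERSE or ERSE-II in either orientation. HSPA5 lies at chr9:125241294-125241593 (minus strand), HSP90B1 at chr12:103930160-103930459 (plus strand), CALR at chr19:12938359-12938658 (plus strand), CRELD2 at chr22:49918384-49918683 (plus strand), HYOU1 at chr11:119057156-119057455 (minus strand), DNAJB9 at chr7:108569624-108569923 (plus strand) and SEL1L at chr14:81533804-81534103 (minus strand).
HSPA5: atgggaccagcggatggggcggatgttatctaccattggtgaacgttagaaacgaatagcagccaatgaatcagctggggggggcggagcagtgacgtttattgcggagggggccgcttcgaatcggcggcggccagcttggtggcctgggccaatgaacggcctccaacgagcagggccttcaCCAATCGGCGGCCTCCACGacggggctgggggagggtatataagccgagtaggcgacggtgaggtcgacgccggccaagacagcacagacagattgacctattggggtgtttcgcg
HSP90B1: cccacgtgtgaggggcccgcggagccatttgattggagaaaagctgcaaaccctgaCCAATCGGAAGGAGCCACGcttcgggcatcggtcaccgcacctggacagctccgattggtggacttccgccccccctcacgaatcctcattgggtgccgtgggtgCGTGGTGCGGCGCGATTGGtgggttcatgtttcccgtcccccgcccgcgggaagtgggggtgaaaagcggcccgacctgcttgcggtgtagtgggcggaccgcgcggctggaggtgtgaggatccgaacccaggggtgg
CALR: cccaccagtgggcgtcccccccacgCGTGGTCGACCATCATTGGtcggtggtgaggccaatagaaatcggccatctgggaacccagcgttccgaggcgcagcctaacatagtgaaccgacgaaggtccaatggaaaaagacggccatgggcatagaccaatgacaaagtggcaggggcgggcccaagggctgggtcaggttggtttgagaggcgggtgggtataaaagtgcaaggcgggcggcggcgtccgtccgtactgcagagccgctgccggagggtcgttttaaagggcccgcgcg
CRELD2: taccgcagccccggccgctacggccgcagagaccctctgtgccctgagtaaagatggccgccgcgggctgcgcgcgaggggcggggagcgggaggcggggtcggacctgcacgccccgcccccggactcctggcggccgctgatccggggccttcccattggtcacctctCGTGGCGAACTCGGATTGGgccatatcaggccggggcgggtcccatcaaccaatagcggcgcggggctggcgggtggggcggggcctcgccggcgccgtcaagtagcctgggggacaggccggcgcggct
HYOU1: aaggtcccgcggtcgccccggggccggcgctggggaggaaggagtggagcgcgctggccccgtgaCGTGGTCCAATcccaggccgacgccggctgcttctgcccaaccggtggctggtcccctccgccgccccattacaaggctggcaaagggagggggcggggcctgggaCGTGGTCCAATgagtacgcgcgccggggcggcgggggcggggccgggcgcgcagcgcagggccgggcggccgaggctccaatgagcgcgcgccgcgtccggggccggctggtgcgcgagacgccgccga
DNAJB9: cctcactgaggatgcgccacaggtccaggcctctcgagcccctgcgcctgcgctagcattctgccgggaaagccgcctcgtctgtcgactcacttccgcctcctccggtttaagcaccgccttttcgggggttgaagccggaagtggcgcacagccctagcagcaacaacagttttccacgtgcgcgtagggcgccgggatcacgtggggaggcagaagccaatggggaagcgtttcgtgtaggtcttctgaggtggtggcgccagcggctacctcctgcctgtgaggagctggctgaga
SEL1L: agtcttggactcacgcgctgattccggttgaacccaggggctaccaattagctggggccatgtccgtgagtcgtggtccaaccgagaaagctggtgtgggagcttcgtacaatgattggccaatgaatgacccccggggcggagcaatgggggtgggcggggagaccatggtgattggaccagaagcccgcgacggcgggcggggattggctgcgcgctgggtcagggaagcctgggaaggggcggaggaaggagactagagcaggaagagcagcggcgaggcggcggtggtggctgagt

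The first question was how the level of each gene with 3-AP compared with the vehicle array of the same line. None passed the test across all 14627 features, and the values fell into 2 patterns. The 9 measured genes of ER-associated degradation on the list were higher with 3-AP in each of the 3 lines. Their median log2 fold change was 0.46, where all features had a median of -0.01 and 24.3% were higher in all 3 lines. For 29 other measured degradation genes, described below, the median was 0.11, and 9 were higher and 5 lower in all 3 lines. The chaperones and disulfide isomerases did not share one direction: 9 of these 14 genes were higher in BCP1 and BCBL1 and lower in BC1, a pattern that 10.2% of all features showed. Both counts were the same in the deposited table and with median scaling. They rest on the probe used for each gene. Second probes of DERL2, CANX and HYOU1, described below, did not follow these patterns in every line. Each fold change below is 3-AP minus vehicle on the log2 scale after background subtraction, with its standard error over 3 pairs and the adjusted p of limma over all features.

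The test called 0 of 28 members, against 0.342% of all features in either direction and 0.246% of them higher. At an unadjusted limma p under 0.05 there were 8 members, all higher, against 11.8% of all features that were higher at that threshold. The smallest adjusted p among members was 0.0731 (limma). Without BCP1, limma likewise called 0 members, with a smallest adjusted p of 0.191. In the processed table as deposited, without background subtraction, 5 of the 28 members passed, all higher (DNAJB9, CRELD2, ERLEC1, SYVN1 and SEC61A1), where 4.09% of all features passed in that direction and 3.76%, but no member, passed in the other. The 3-AP arrays lay above all vehicle arrays for 9 members, against 8.07% of all features, and below them for none, against 10%. The 9 include OS9, whose lowest treated and highest vehicle log2 levels were nearly equal (8.1746 and 8.1736). The median log2 fold change over the 28 members was 0.22, and 0.17 in the deposited table. Calls in the deposited table are not given here without BCP1.

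**Figure D1:**
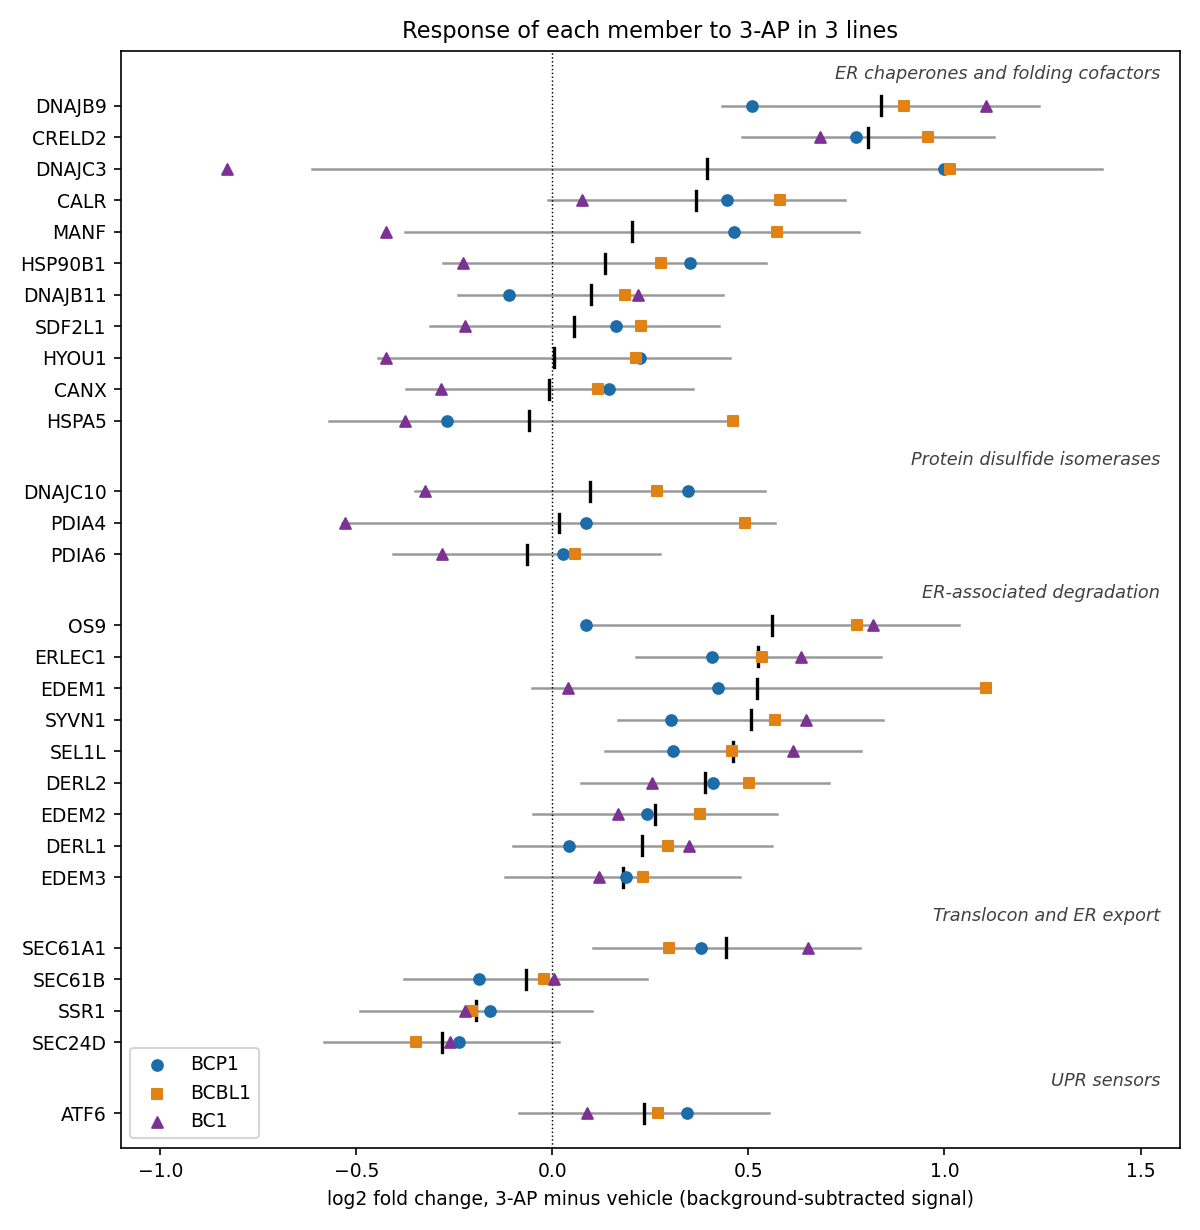
Log2 fold change of 3-AP over vehicle for the 28 measured members, grouped by role. Symbols are the 3 lines, black ticks the mean, and grey bars the 95% interval from limma; all 9 degradation genes lie to the right of 0 in each line, and most chaperone values of BC1 (triangles) lie to the left.

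Among the chaperones and cofactors, DNAJB9 and CRELD2 had the largest values. DNAJB9 encodes ERdj4, an ER J-protein cochaperone of BiP and a known XBP1 target. Its log2 level was 9.32, 8.96 and 8.96 with vehicle and 9.83, 9.86 and 10.07 with 3-AP in BCP1, BCBL1 and BC1. The 3 treated arrays lay above the 3 vehicle arrays, with a log2 fold change of 0.84 ± 0.16, or 1.79-fold (SE over n = 3 pairs; limma adjusted p = 0.0872). In the deposited table it rose by 0.71 ± 0.11 (limma adjusted p = 0.0154), 1.64-fold. CRELD2, an ER protein induced in the unfolded protein response, had log2 levels of 8.67, 8.77 and 9.03 with vehicle and 9.45, 9.73 and 9.71 with 3-AP. The groups again did not overlap, and the log2 fold change was 0.81 ± 0.13 (limma adjusted p = 0.0731), 1.75-fold. In the deposited table CRELD2 rose by 0.66 ± 0.09 (limma adjusted p = 0.0103), 1.59-fold. Of the 15 other settings of the analysis, DNAJB9 and CRELD2 passed in 5 each.

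CALR, which encodes the lectin chaperone calreticulin, was the third cofactor higher in all lines, by 0.44, 0.58 and 0.07 in BCP1, BCBL1 and BC1. Its log2 levels were 9.71, 9.82 and 10.11 with vehicle and 10.16, 10.40 and 10.18 with 3-AP, and the groups did not overlap, although BC1 differed little. The log2 fold change was 0.37 ± 0.15 (limma adjusted p = 0.220).

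HSPA5 encodes BiP, the ER Hsp70 whose induction is the usual sign of the unfolded protein response. Its log2 level was 9.01, 8.96 and 9.65 with vehicle and 8.74, 9.42 and 9.27 with 3-AP. The difference was positive in BCBL1 (0.46) and negative in BCP1 (-0.27) and BC1 (-0.37), and the groups overlapped. The log2 fold change over lines was -0.06 ± 0.20 (limma adjusted p = 0.876), with a 95% interval of -0.57 to 0.45. Changes as large as these bounds lie within the error of 3 pairs.

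HSP90B1 encodes GRP94, the ER Hsp90, and HYOU1 encodes GRP170, a nucleotide exchange factor of BiP. HSP90B1 had a log2 fold change of 0.35 (BCP1), 0.28 (BCBL1) and -0.23 (BC1), and HYOU1 of 0.22, 0.21 and -0.42. MANF, a secreted ER stress protein, had 0.46, 0.57 and -0.43. Its log2 level was 10.93, 10.77 and 11.88 with vehicle and 11.40, 11.35 and 11.45 with 3-AP, so BC1 was highest with vehicle and the 3 lines lay close together with 3-AP. SDF2L1, a cofactor of the BiP cycle, had 0.16, 0.23 and -0.22, and CANX, the membrane-bound lectin chaperone calnexin, had 0.15, 0.12 and -0.28. DNAJC3, which encodes the cochaperone p58IPK, had the widest spread after background subtraction, with 1.00, 1.01 and -0.83. Its probe was dim, with log2 levels of 5.05 to 6.58 over the 6 arrays, and it was not detected on 1 of them. Its deposited signals were 157.5 to 219.8. The log2 fold change of DNAJC3 over lines was 0.39 ± 0.40, and 0.13 ± 0.13 in the deposited table. DNAJB11, which encodes the BiP cochaperone ERdj3, had another pattern, with -0.11, 0.18 and 0.22. Over lines the 6 genes that were higher in BCP1 and BCBL1 and lower in BC1 had log2 fold changes of -0.01 to 0.39, and their adjusted p-values were 0.576 or more by limma.

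**Figure D2:**
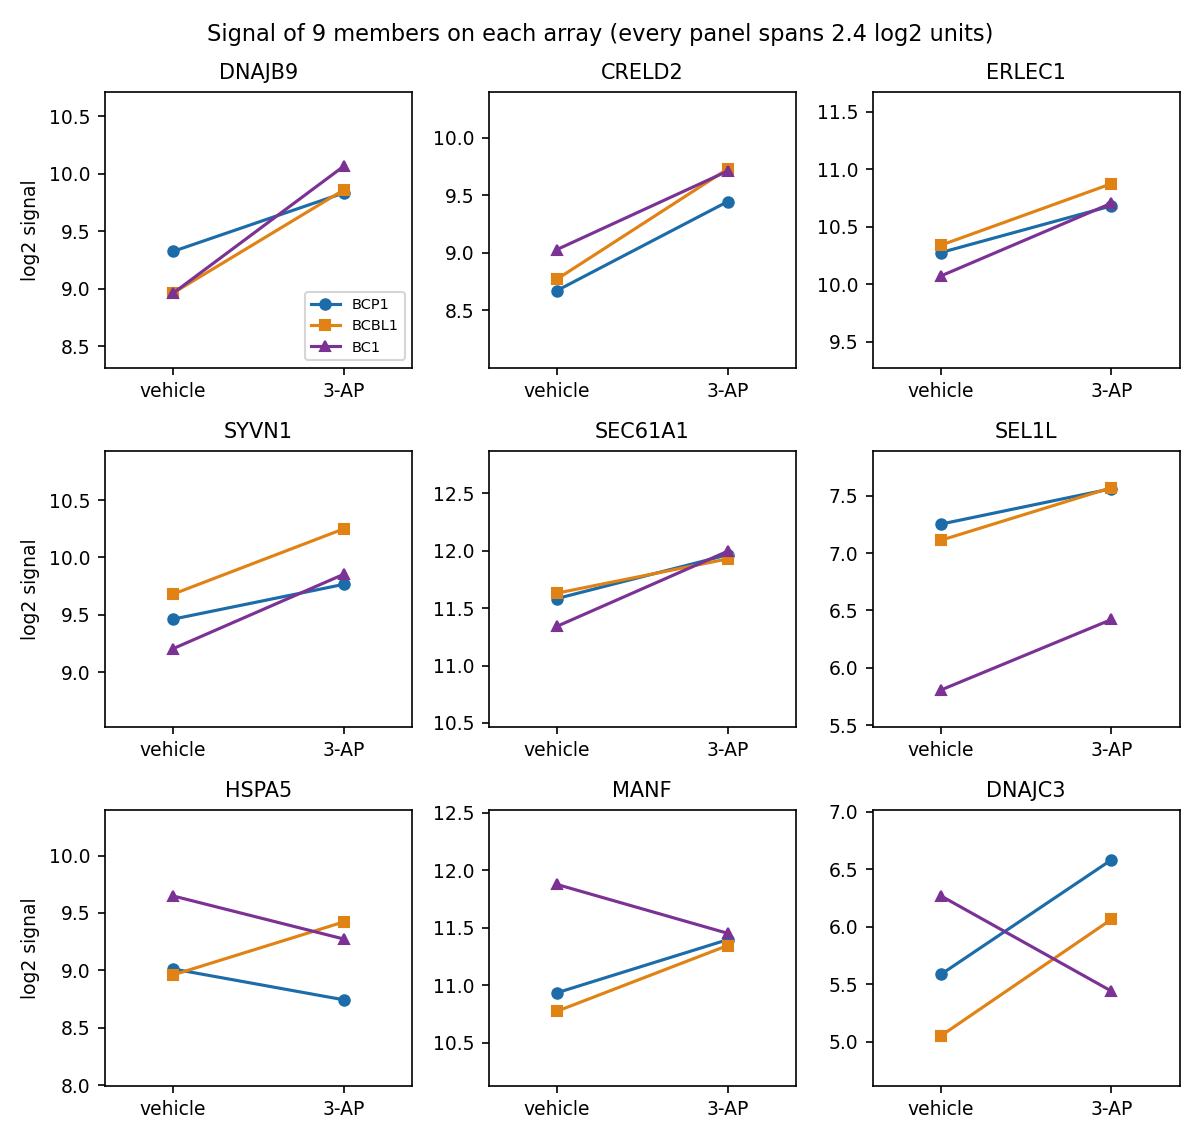
Log2 signal of 9 members on each of the 6 arrays, with a line joining the vehicle and the 3-AP array of a cell line. DNAJB9, CRELD2, ERLEC1, SYVN1, SEC61A1 and SEL1L slope upward in every line, MANF and DNAJC3 slope downward in BC1 only, and HSPA5 slopes downward in BC1 and BCP1.

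The disulfide isomerases form and rearrange disulfide bonds in new proteins. All 3 measured ones were higher in BCP1 and BCBL1 and lower in BC1. For PDIA4, also called ERp72, the log2 fold change was 0.09 (BCP1), 0.49 (BCBL1) and -0.53 (BC1). Its log2 level was 6.82, 6.62 and 7.78 with vehicle and 6.91, 7.11 and 7.25 with 3-AP. PDIA6 had 0.03, 0.06 and -0.28, and DNAJC10, which encodes the disulfide reductase ERdj5, had 0.35, 0.27 and -0.33. Over lines the 3 values were 0.02 ± 0.22, -0.07 ± 0.13 and 0.10 ± 0.18, and none passed (limma adjusted p = 0.766 to 0.972). The probe of PDIA3, which encodes ERp57, was not above background on any array, with deposited signals of 126 to 138 and detection p-values of 0.321 to 0.796 on the 4 arrays that have their own.

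Whether the response of BC1 differed from that of the other 2 lines was tested with limma on the 3 log2 differences, a fit with 1 residual degree of freedom. No feature of the 14627 passed, and 5 of 28 members had an unadjusted p under 0.05, against 17.8% of all features. These were DNAJC3, MANF, HYOU1, DNAJC10 and PDIA4, with log2 differences of BC1's response from the mean of the others of -1.84 ± 0.19, -0.94 ± 0.20, -0.64 ± 0.19, -0.63 ± 0.19 and -0.82 ± 0.26 (SE, limma adjusted p = 0.231 to 0.259). These standard errors come from the difference between the BCP1 and BCBL1 responses, moderated by limma over all features. They hold no spread of BC1 itself, and the probe of DNAJC3 was dim. With a single BC1 difference against 2 others, the test does not show that the lines respond alike.

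The genes of ER-associated degradation recognise, move and ubiquitinate misfolded proteins. SEL1L and SYVN1 encode the adaptor and the ubiquitin ligase (HRD1) of the main complex. SYVN1 had log2 levels of 9.46, 9.68 and 9.21 with vehicle and 9.77, 10.25 and 9.85 with 3-AP. The treated arrays lay above the vehicle arrays, with a log2 fold change of 0.51 ± 0.13 (limma adjusted p = 0.129), 1.42-fold, and in the deposited table SYVN1 rose by 0.44 ± 0.09 (limma adjusted p = 0.0346). SEL1L had 7.25, 7.11 and 5.81 with vehicle and 7.56, 7.57 and 6.42 with 3-AP. Each line was higher with 3-AP, but BC1 lay below both other lines under either treatment, so the groups overlapped. Its log2 fold change was 0.46 ± 0.13 (limma adjusted p = 0.136), and 0.22 ± 0.08 in the deposited table (limma adjusted p = 0.144).

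ERLEC1 and OS9 encode lectins that bring glycoproteins to that complex. ERLEC1 had log2 levels of 10.28, 10.34 and 10.07 with vehicle and 10.68, 10.87 and 10.70 with 3-AP, without overlap. The log2 fold change was 0.53 ± 0.12 (limma adjusted p = 0.110), 1.44-fold, and in the deposited table it rose by 0.49 ± 0.09 (limma adjusted p = 0.0222). OS9 had 8.09, 7.91 and 8.17 with vehicle and 8.17, 8.69 and 8.99 with 3-AP, so the lowest treated and the highest vehicle value were equal to this precision. The differences were 0.09 (BCP1), 0.78 (BCBL1) and 0.82 (BC1), for a log2 fold change over lines of 0.56 ± 0.19 (limma adjusted p = 0.170).

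EDEM1, EDEM2 and EDEM3 encode mannosidase-like proteins that mark glycoproteins for degradation. Their responses on the log2 scale were 0.42, 1.11 and 0.04 for EDEM1 in BCP1, BCBL1 and BC1, 0.24, 0.38 and 0.17 for EDEM2, and 0.19, 0.23 and 0.12 for EDEM3. Over lines they were 0.52 ± 0.23, 0.26 ± 0.12 and 0.18 ± 0.12. DERL1 and DERL2 encode derlins, membrane proteins of the exit channel. DERL2 had 0.39 ± 0.12 and DERL1 0.23 ± 0.13, and for both the treated arrays lay above the vehicle arrays. None of these 5 passed (limma adjusted p = 0.162 to 0.397). Neither probe of DERL3 entered the fit. One was detected on no array and the other on 1, with deposited signals of 134 to 157.

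Among the translocon and export genes, SEC61A1 and SEC61B, which encode 2 subunits of the same channel, had mean log2 fold changes of opposite sign. SEC61A1 had log2 levels of 11.58, 11.63 and 11.34 with vehicle and 11.96, 11.93 and 11.99 with 3-AP. The treated arrays lay above the vehicle arrays, with a log2 fold change of 0.44 ± 0.13 (limma adjusted p = 0.150), 1.36-fold, and in the deposited table SEC61A1 rose by 0.43 ± 0.10 (limma adjusted p = 0.0437). SEC61B had -0.19, -0.02 and 0.00 in BCP1, BCBL1 and BC1 and -0.07 ± 0.12 over lines (limma adjusted p = 0.760). SSR1, a subunit of the translocon-associated TRAP complex, and SEC24D, a cargo adaptor of COPII vesicles, were the 2 members lower in all 3 lines, as were 25.1% of all features, with -0.20 ± 0.12 and -0.28 ± 0.12 (limma adjusted p = 0.359 and 0.226).

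Of the sensors, ATF6, the membrane-bound transcription factor that is cleaved under stress, had log2 fold changes of 0.34, 0.27 and 0.09 and 0.23 ± 0.13 over lines (limma adjusted p = 0.315). The probe of ERN1, which encodes IRE1, was not above background on any array, with deposited signals of 114 to 136. For the 8 measured genes with ERSE or ERSE-II in a promoter window, log2 fold changes ranged from -0.07 to 0.81 with a median of 0.03, and 2 were higher in all 3 lines (CALR and CRELD2). For the 18 measured genes with windows and no match they ranged from -0.20 to 0.84 with a median of 0.32, and 11 were higher in all lines. Of all features, 24.3% were higher in all 3 lines. The genes without a match include every measured degradation gene that had a window, so the split overlaps with the grouping by role. This split was made after the values were seen and is a description only.

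**Figure D3:**
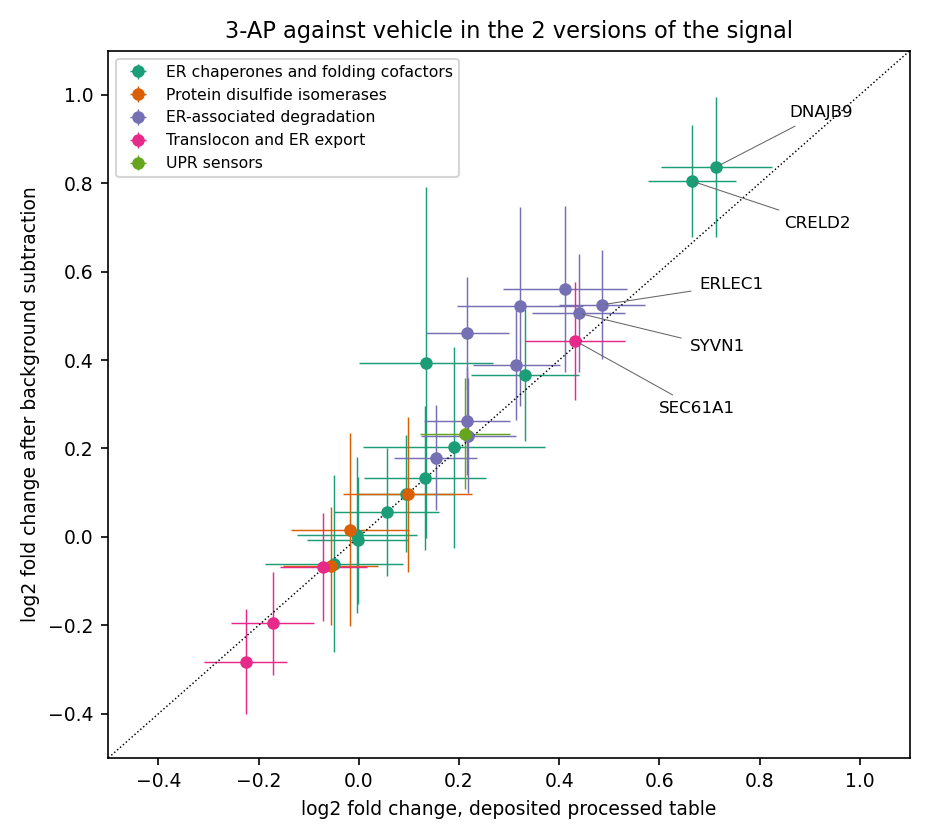
Log2 fold change of 3-AP over vehicle for the 28 measured members in the deposited processed table (horizontal) and after background subtraction (vertical), with standard errors, coloured by role. The 5 labelled genes are those that passed in the deposited table, and the dotted line marks equal values.

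A second probe was kept for 5 members. In the mean over lines only that of HYOU1 differed in sign, with a log2 fold change of -0.08 against 0.00. For CANX, DERL2, DNAJC10 and SYVN1 the second probes gave means of -0.18, 0.16, 0.13 and 0.33. The probes used gave -0.01, 0.39, 0.10 and 0.51. By line, the second probe of DERL2 was lower with 3-AP in BC1 (log2 level 6.91 against 6.99 with vehicle). That of CANX was lower in all 3 lines, and that of HYOU1 was lower in BCP1 (7.82 against 7.87) as well as in BC1. The second probes of DNAJC10 and SYVN1 had the direction of the probes used in each line.

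Other genes of the pathway were read from lists of 150 genes, of which 136 were measured. None passed for 3-AP (limma), against 0.342% of all features; 19 were higher and 7 lower at an unadjusted p under 0.05, and their median log2 fold change was 0.08. Of all features, 11.8% were higher and 12.2% lower at that threshold. With the deposited values, 9 rose and 2 fell, against 4.09% and 3.76% of all features. The list of other signalling genes of the unfolded protein response had 21 measured members with a median of 0.06. In it XBP1, the transcription factor activated by IRE1, had 0.08 ± 0.12 (limma adjusted p = 0.728), with log2 levels of 11.98, 11.94 and 11.10 with vehicle and 11.97, 12.14 and 11.14 with 3-AP. These probes measure the total transcript and not its splicing. ATF4 had -0.13 ± 0.15 (limma adjusted p = 0.609). DDIT3, which encodes the stress factor CHOP, had log2 levels of 6.96, 6.69 and 7.07 with vehicle and 8.04, 8.03 and 8.66 with 3-AP. Its log2 fold change was 1.34 ± 0.15 (limma adjusted p = 0.0516), and in the deposited table it rose by 0.83 (limma adjusted p = 0.0102). PPP1R15A, which encodes the phosphatase subunit GADD34, had 1.67 ± 0.28 (limma adjusted p = 0.0807), with 1.30, 1.21 and 2.50 in BCP1, BCBL1 and BC1.

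The list of other oxidoreductases and folding enzymes had 32 measured members and a median of 0.12. QSOX1, a sulfhydryl oxidase, had 0.62 ± 0.12 (limma adjusted p = 0.0872), and SIL1, a nucleotide exchange factor of BiP, had 0.54 ± 0.12 (limma adjusted p = 0.105). The list of other ER-associated degradation genes had 29 members and a median of 0.11, and 9 of them were higher and 5 lower in all 3 lines, against 24.3% and 25.1% of all features. In it the mannosidase gene MAN1B1 had 0.83 ± 0.14 (limma adjusted p = 0.0774) and the deubiquitinase gene YOD1 -0.76 ± 0.12 (limma adjusted p = 0.0740). The other translocon, signal peptidase and glycosylation genes had a median of 0.08 over 31 members. In that list SEC62, a cofactor of the SEC61 channel, had -0.57 ± 0.17 and SRPRA, a subunit of the signal recognition particle receptor, 0.36 ± 0.12. The other export and retrieval genes had a median of 0.01 over 23 members. In that list COPA, a subunit of the COPI coat, had 0.38 ± 0.13, and SEC23A, a subunit of the COPII coat, had -0.51 ± 0.14. SEC23A was detected on 4 of the 6 arrays and had -0.20 ± 0.09 in the deposited table.

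The second question was how the level of each gene differed between lines. The 3 genes that passed were SEL1L, SSR1 and SEC24D: SEL1L was lower in BC1 than in BCP1 and BCBL1, and SSR1 and SEC24D were higher. The limma F test called 3 of 28 members, against 20.3% of all features. The same 3 members passed in the limma contrast of BC1 with BCP1, against 22.4% of all features, and in that of BC1 with BCBL1, against 24.7%. The 2 arrays of a line are 1 vehicle and 1 treated culture, so this test takes the spread of the response between lines as its error.

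For SEL1L the mean of both arrays was 7.41 (BCP1), 7.34 (BCBL1) and 6.11 (BC1) on the log2 scale. The log2 difference of BC1 from the mean of the others was -1.26 ± 0.14 (SE, limma F test adjusted p = 0.00879), so SEL1L was 2.39-fold lower in BC1, and 1.58-fold lower in the deposited table. SSR1 had 9.49, 9.49 and 10.26, and BC1 was 1.71-fold higher (log2 difference 0.77 ± 0.12, limma F test adjusted p = 0.0276). SEC24D had 8.86, 8.92 and 9.62, and BC1 was 1.66-fold higher (0.73 ± 0.13, limma F test adjusted p = 0.0327). For all 3 genes both BC1 arrays lay outside the range of the other 4 arrays. Without BCP1 (replicate 1), only SEL1L passed, and SSR1 and SEC24D had limma F test adjusted p-values of 0.0502 and 0.0635. Without BC1 no member and no feature passed.

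The other 25 members did not pass. Their log2 differences of BC1 from the mean of the other lines ran from -0.41 (DNAJC10) to 0.65 (PDIA4, limma F test adjusted p = 0.199), with MANF at 0.55 and HSPA5 at 0.43. SEC61B, at 0.38, passed in the deposited table (limma F test adjusted p = 0.0357), where 4 members passed, against 29.6% of all features. Between the arrays labelled BCBL1 and BCP1, no member and no feature passed in limma's contrast, and 1 member had an unadjusted p under 0.05, against 6.75% of all features. The median absolute log2 difference over members was 0.13 between the vehicle arrays of these 2 lines, and 0.29 and 0.26 between BC1 vehicle and the vehicle arrays of BCP1 and BCBL1.

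**Figure D4:**
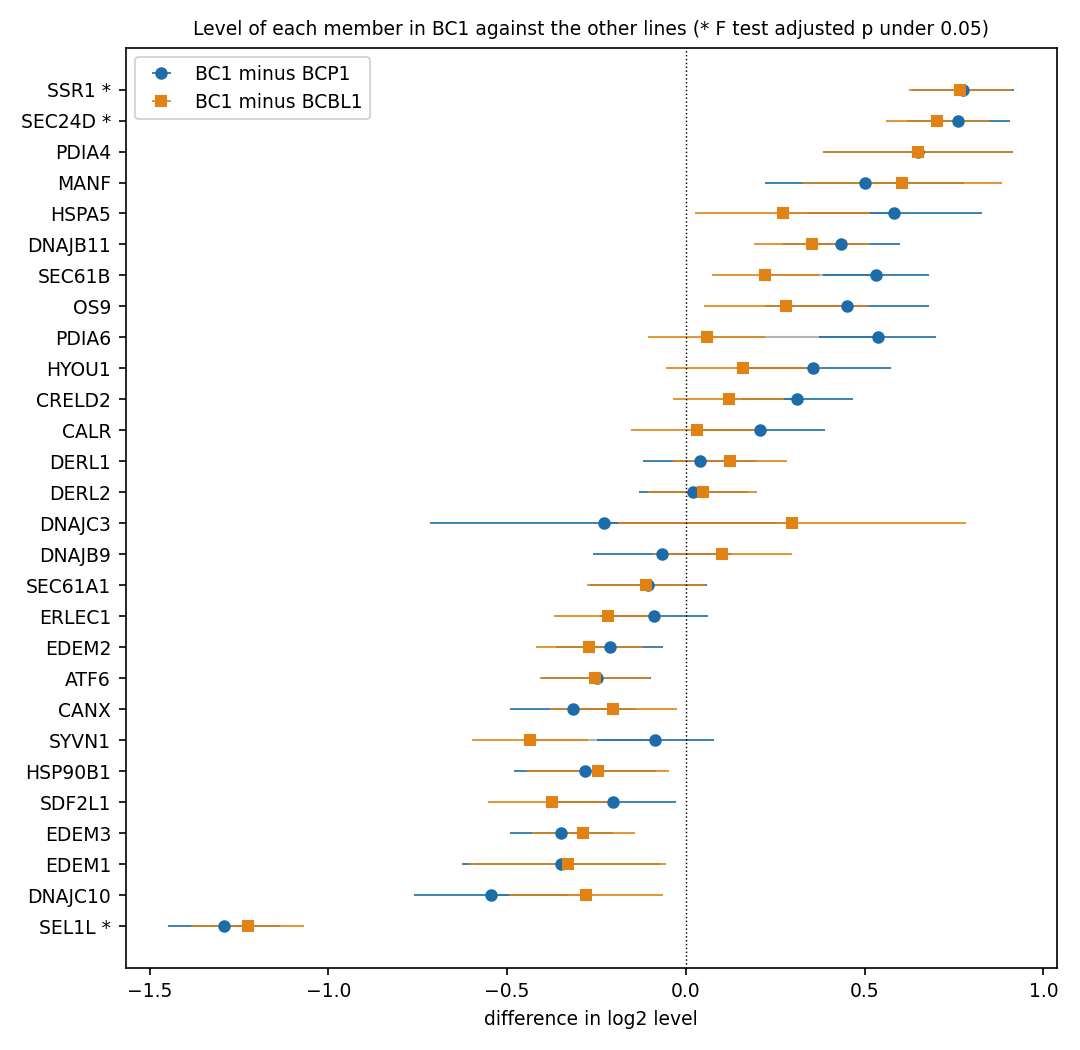
Difference in log2 level of BC1 from BCP1 (circles) and from BCBL1 (squares) for the 28 measured members, with standard errors from limma. SEL1L lies far below 0 and SSR1 and SEC24D lie above it; asterisks mark these 3 genes, which passed the F test.

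Among the other genes of the pathway, 24 of 136 passed the F test, 9 higher and 15 lower in BC1, against 20.3% of all features. TMX4, a transmembrane disulfide oxidoreductase, was detected on both arrays of BCP1 and of BCBL1 and was not above background on either array of BC1. It entered the fit only through the lines where it is high, so its difference is a description, and its deposited signals were 4.31-fold higher in these lines than in BC1. ERLIN2, which takes part in the degradation of ER membrane proteins, had a log2 difference of BC1 from the mean of the other lines of -2.47, and UBXN8, an ER adaptor of the p97 ATPase, one of -1.54, or -0.95 in the deposited table. SEC61A2, a second form of the channel subunit, had a log2 difference of 2.79, SEC23A of 1.45, and the cochaperone gene DNAJB2 of 1.52. SEC61A2 and SEC23A were detected on 4 of the 6 arrays, among them both arrays of BC1. They reached the filter of 3 arrays only with the line where they are high, so their differences are also a description. The deposited table gave smaller log2 differences of 1.24 and 0.44. KDELR1, a receptor that retrieves ER proteins, had 0.82. EIF2S1, a subunit of the translation factor that PERK phosphorylates, had -0.95, SEC62 had -1.17 and the glucosidase gene MOGS had -0.95. XBP1 had -0.89 (limma F test adjusted p = 0.0214). Apart from those of SEC61A2 and SEC23A, which are descriptions, the log2 differences listed here are of genes that passed the F test.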

How the data were processed

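Total RNA of 6 cultures was measured on Illumina HumanHT-12 arrays, 1 per culture. The deposited processed table holds 1 intensity per probe for 47323 probes, with a normalization not given in the sources used here. Also deposited by the authors were non-normalized intensities with detection p-values, in which the columns named for BCP1 repeat BCBL1 (detection p-values equal in 99.9852% and 99.9894% of probes), so BCP1 has no detection p-values of its own.

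The processed intensities were background-corrected with nec of limma 3.58.1 in R 4.3.3 (detection p-values, offset 16), quantile-normalized over 6 arrays and log2-transformed. The BCP1 arrays were given, by rank, the mean detection p profile of the other 4 arrays. A probe was kept if its detection p was under 0.05 on at least 3 arrays (for BCP1, within the brightest 38.12% of probes). On the 4 arrays with their own p-values, 37% to 39.2% of probes were detected. This left 17988 probes, and the one with the highest mean was used for each gene, giving 14627 features (10456 named, 4171 probes without a symbol). Symbols come from the platform annotation: 30113 probes have 1 symbol, 8 several and 17202 none here, and 13 probes without signal were left out.

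limma's lmFit and eBayes fitted agent with the cell line as block (2 residual and 3.2 prior degrees of freedom), with Benjamini-Hochberg adjustment over all features at 0.05. The line level was tested by the F test of the same fit, and the difference in response by limma on the 3 log2 differences. Pairs come from the labelled line: within a line, the 2 arrays' deviations from their group means correlated at 0.71 (BCP1), 0.76 (BCBL1) and 0.86 (BC1), and across BCP1 and BCBL1 at 0.58 and 0.59, while arrays of BC1 against those of the other lines gave -0.73 to -0.78. Slides and scan dates were not used here. The precision is limited by the number of arrays. The fits were tested on simulated data.

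All members are named. Of each other list, the 2 genes with the smallest p for 3-AP are named, and the 2 with the largest difference of BC1 from the other lines among those past the F test, with XBP1, ATF4 and DDIT3 throughout. The members and lists were chosen with earlier results of these data known. Alternatives were the deposited table on the log2 scale, an offset of 50, median scaling, other filters, probe averages, other variance models, the non-normalized signals, other blocks and leaving out each line.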

Additional observations from a re-analysis of the deposited data

How the results depend on the processing

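No alternative gave a member that was called lower with 3-AP. The non-normalized signals were used for BCBL1 and BC1 only, so that alternative also leaves out BCP1. The count of all features past the limma threshold for 3-AP was 50, and 1148 in the deposited table, 650 with an offset of 50, 21 with median scaling, 10 without a filter on dim probes, 654 with the strict filter, 1252 with a variance trend, 19 with robust eBayes, 11 in the non-normalized signals, 10 with no replicate block, 447 with the line as a random replicate block and 19 with BCP1 and BCBL1 averaged as 1 line, an alternative chosen after seeing the data. Leaving out one line gave 3 to 36: 20 without BCP1, 36 without BCBL1 and 3 without BC1. Members called were 0, and 5 in the deposited table, 2 with an offset of 50 (CRELD2 and DNAJB9), 3 with the strict filter (with ERLEC1), 5 with the variance trend and 2 with the random block. With no replicate block, 0 members were called (smallest limma adjusted p = 0.276), so leaving out the pairing changed no call of a member. The split of calls was 36 higher and 14 lower, and 598 and 550 in the deposited table, 352 and 298 with an offset of 50, 334 and 320 with the strict filter, 678 and 574 with the variance trend, and 207 and 240 with the random block. For line levels, 2962 features and 3 members passed the F test, leaving out one line gave 0 to 2852 features and 0 to 3 members (0 without BC1, 1 without BCP1), and the variance trend gave 6 members. SEC24D missed the threshold in the non-normalized signals (limma F test adjusted p = 0.0572). The log2 fold changes near 0 changed sign. HYOU1 had -0.0042 in the deposited table, -0.0156 with median scaling, -0.0391 as the mean of its probes, -0.107 in the non-normalized signals and -0.103 with the averaged lines. PDIA4 had -0.0178, -0.012, -0.0221 and -0.120 in the deposited table, with median scaling, non-normalized and averaged. In the non-normalized signals HSPA5 had 0.045, SDF2L1 -0.00933 and DNAJC10 -0.0299, and with the averaged lines SDF2L1 had -0.0137 and DNAJC10 -0.00933. The level difference of DNAJC3 in BC1 was -0.0824 in the deposited table. Leaving out one line gave -0.322 to 0.0964 for HSPA5, -0.106 to 0.218 for HYOU1, -0.221 to 0.289 for PDIA4, -0.0291 to 0.307 for DNAJC10, -0.0296 to 0.194 for SDF2L1, -0.0662 to 0.102 for DNAJB9 (level in BC1), -0.23 to 0.296 for DNAJC3 (level in BC1), -0.0843 to 0.13 for CANX and -0.127 to 0.0415 for PDIA6. The causes were not tested. The number of arrays, 1 per condition and line, limits every comparison.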
